A study of Saccharomyces cerevisiae with 2 samples.

Results

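The genes described here are yeast open reading frames (ORFs) that carry a letter suffix on their systematic name and have no other gene symbol, such as YDR524C-B. They were chosen by name, as probe sets annotated to 1 gene whose symbol is a systematic name followed by a hyphen and a letter. The rule found 81 genes on 135 probe sets, out of 5656 genes on 6504 probe sets with 1 gene and 9335 probe sets in all. RefSeq's table of the R64 assembly lists 239 genes with such a symbol. Of the others, 54 shared every probe set listed for them with other genes, and 104 had no probe set listed here, so none of these was described.

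RNA came from Saccharomyces cerevisiae cells whose histone H3 carried the mutant form named K4,36,79R, in which lysines 4, 36 and 79 were replaced by arginine. The cells also held wild-type H3, made in galactose and shut off in glucose, and were collected 12 h after a move to selective glucose medium, when the mutant form was meant to be the cells' one source of H3. An Affymetrix expression array was hybridised with biotin-labelled cRNA from each of 2 replicate cultures. Both arrays belong to 1 group, and the wild type and other times of the design were not analysed here, so signal is described for the mutant alone, with how far its cultures differed, and no groups were tested against each other.

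In systematic yeast names the second letter gives the chromosome, L or R the arm, and W or C the strand. A suffix marks a frame that was added between ORFs already numbered. Many such frames are short and were recognised only after the first annotation of the genome, from transcript tags, comparison of related species or proteomics, and for many no function is known. Frames of Ty retrotransposons, mobile elements that copy themselves through an RNA intermediate, carry suffixed names too. No protein product or sequence of the members is in the tables used here, so no sequence is shown and roles are given only where they are well known.

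The name rule did not yield small ORFs alone. By the annotated span in R64, introns included, 74 members measured from 51 to 711 bases, with a median of 202.5 bases. The other 7, which are YBL005W-B, YBL100W-B, YDR098C-B, YDR261W-B, YGR109W-B, YHR214C-B and YOR192C-B, measured from 4645 to 5383 bases. Each of these long frames overlapped another suffixed frame of 873 to 1437 bases. These 7 are known as the Gag-Pol frames of Ty retrotransposons, in which the shorter frame encodes Gag, the protein of the particle shell, and the longer one continues into the enzymes that copy and insert the element. The long and the short frames were therefore described apart. The members lay on all 16 nuclear chromosomes, 43 on the W strand and 38 on the C strand.

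Each probe set had a MAS5 intensity, called signal here, on a linear scale. A gene's signal was the mean of its probe sets on the log2 scale. Values with ± give the SD between arrays (n = 2), which is a small number to judge precision from. Signal also depends on how well a probe set binds its target, so levels are set against the whole array and are not read as RNA amounts. As a floor, the highest of 9 control probe sets for the opposite strand of E. coli transcripts read 3.39 on replicate 1 and 4.07 on replicate 2. The median over all 9335 probe sets was 28.4 and 27.5 on replicates 1 and 2, and the log2 ratio of the second array to the first averaged -0.0094 (SD 0.053) over 15 poly-A controls.

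The suffixed unnamed ORFs gave weak signal as a group, with a bright minority. Their median was 14.1 ± 1.78 (SD, n = 2), against 41.7 ± 0.383 for all genes. Of the 81 members, 61 (75.3%) read above the opposite-strand controls on both arrays, where 96.3% of all 5656 genes did. The exact binomial 95% interval for the members' share, which covers counting error only, ran from 64.5% to 84.2%. It treats the 81 genes as independent, which the long frames are not, and is no test against all genes. At or above the 25th percentile of all genes, a signal of about 19.2, were 34 members (42.0%), where by construction 75% of all genes lay. At the top, 10 members (12.3%) had a signal of 300 or more, as did 8.13% of all genes. These 10 were 6 of the 7 long frames and 4 of the 74 short frames. At the bottom, 19 members (23.5%) were under 3, compared with 2.51% of all genes.

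**Figure D1:**
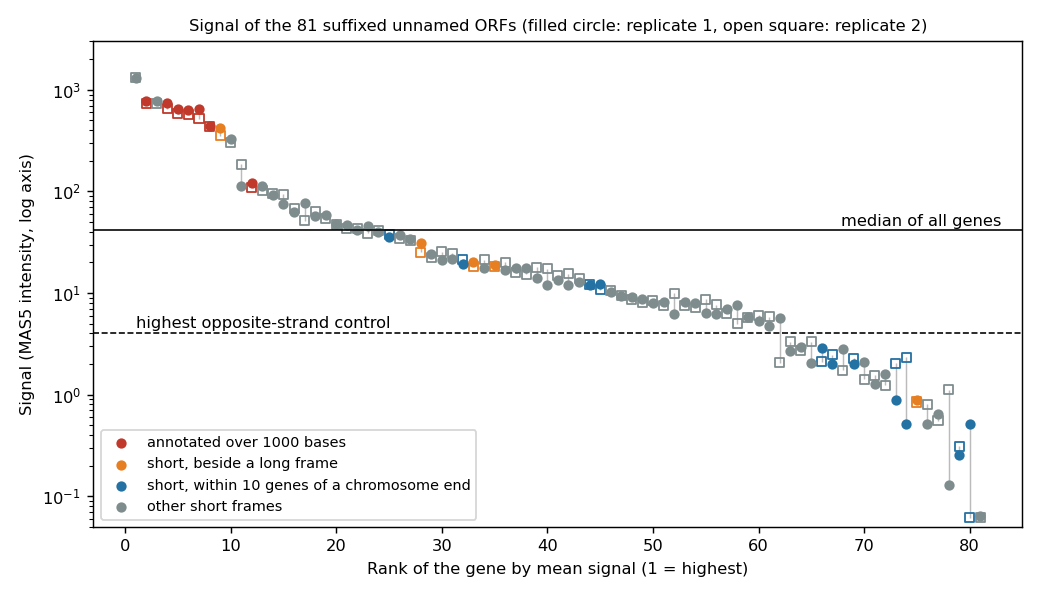
Signal of each of the 81 suffixed unnamed ORFs on both arrays (log axis), ordered by mean signal, with colours for the long frames and 3 kinds of short frame. The solid line is the median of all genes, the dashed line the higher of the 2 array levels of the opposite-strand controls (4.07). YDR524C-B stands at the top, most long frames follow it, and 20 genes lie under the controls on at least 1 array.

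Without the 7 long frames, the 74 short frames had a median of 11.7 ± 0.392, and 54 of them (73.0%) read above the opposite-strand controls on both arrays. Short frames with a gene symbol of their own were bright. Among 117 protein-coding genes of up to 303 bases that have a symbol, the median was 116 ± 1.15, and 116 of the 117 (99.1%) read above the controls. Their median span, 237 bases, was close to the 202.5 bases of the short unnamed frames. The 99 genes with a suffixed locus name and a symbol of their own had a median of 95.7 ± 5.53, with 93 (93.9%) above the controls. The 2 named groups share 66 genes, which is 66.7% of the suffixed and 56.4% of the short ones. Unnamed ORFs without a suffix, 368 genes with a median span of 921 bases, lay between, with a median of 23.8 ± 0.0148 and 327 (88.9%) above the controls. Of these 368, 162 span over 1000 bases and stayed in the group, and any Ty frames among them were not set apart.

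The brightest suffixed genes with a symbol are known products of the cell surface or of stress. HOR7, a gene induced by high osmolarity, read 1483 on replicate 1 and 1418 on replicate 2. The cell wall mannoprotein genes CWP2 and CCW14 read 1370 and 1345, and 1109 and 1108. In the short named group the ribosomal protein gene RPS29A, at 1113 and 1124, followed HOR7 and CWP2. The brightest unnamed ORFs without a suffix were YNL208W, at 1143 and 1103, YJR027W, at 624 and 557, and YLR179C, at 530 and 481. Each comparison group thus held genes with signal above 500, as the members did.

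**Figure D2:**
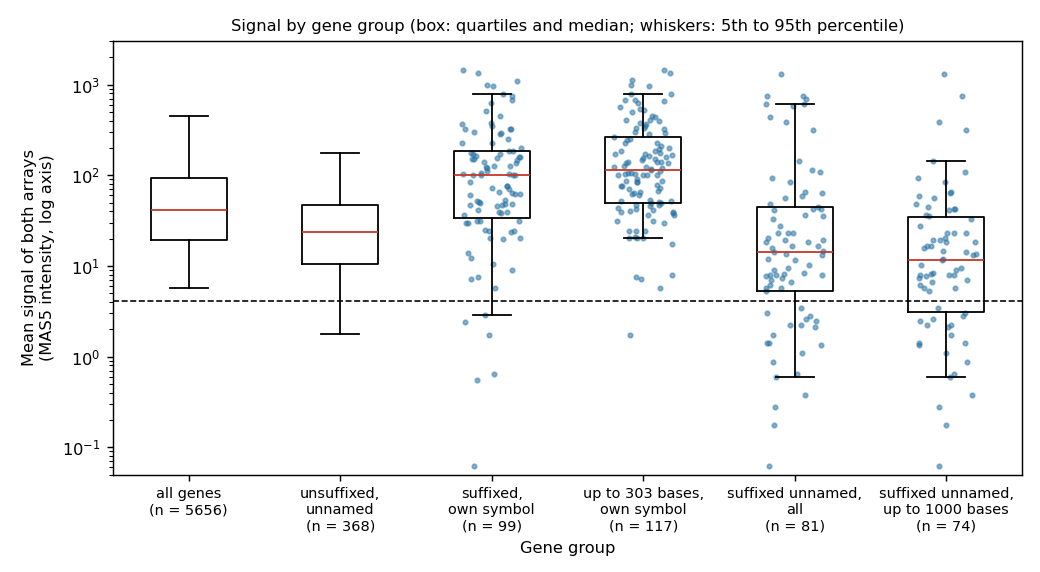
Mean signal of both arrays (log axis) by gene group, with box at the quartiles, line at the median, whiskers from the 5th to the 95th percentile and points for genes in groups of under 200. The suffixed unnamed ORFs have a lower median (14.1) than the named suffixed genes (95.7), the named short genes (116) and all genes (41.7), and a tail under the dashed line of the opposite-strand controls.

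The brightest member was a short frame. YDR524C-B, of 201 bases on chromosome IV, read 1319 on replicate 1 and 1318 on replicate 2 (1319 ± 0.666). All of its 3 probe sets were bright, at 904 and 883, at 1386 and 1390, and at 1831 and 1868 on replicates 1 and 2. In mean signal it lay above 99.5% of all genes. The frame next to it on the other strand, YDR524W-C, of 90 bases, read 16.9 and 20.0 and lay under the 25th percentile of all genes.

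Other bright short frames were few. YCR024C-B, of 267 bases on chromosome III, read 769 and 741 (755 ± 19.8). It follows PMP1, the gene of a small regulator of the plasma membrane proton pump, on the same strand, and PMP1 read 648 and 614. YBR085C-A, of 258 bases on chromosome II, read 325 and 306 (316 ± 13.6). YER138W-A, of 105 bases on chromosome V, read 425 and 352 (389 ± 52.0) on a probe set of the family type, described below with the long frames. The 4 further probe sets that name it together with other genes had medians of 6.33 and 8.67 on replicates 1 and 2, and reached 155 and 102. Its signal hence cannot be assigned to this frame alone. YLR264C-A, of 117 bases on chromosome XII, read 113 and 185 (149 ± 50.9), and the ratio between its replicates was the farthest from 1 among the members at or above the 25th percentile. YKL033W-A, the longest of the short frames at 711 bases on chromosome XI, read 113 and 102 (108 ± 7.52). Those were all the short frames with a mean signal of 100 or more, and YDL085C-A, of 207 bases on chromosome IV, came next at 92.3 and 95.8.

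The long Ty frames were bright on both arrays, and 6 of the 7 lay above the 90th percentile of all genes, as did 10 members in all, compared with 9.99% of all genes by construction. Their median was 611 ± 49.0. YBL100W-B read 777 and 736 (757 ± 28.9) on replicates 1 and 2. YOR192C-B read 735 and 652 (693 ± 58.8). YHR214C-B read 646 and 581 (614 ± 45.7).

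All 3 were lower on replicate 2. YBL005W-B read 637 and 577 (607 ± 42.4). YDR098C-B read 654 and 519 (586 ± 95.4). YDR261W-B read 442 and 431 (437 ± 7.67). No order of RNA levels is read from these values, since each comes from a different probe set. YGR109W-B read 122 and 110 (116 ± 7.86), still above the median of all genes.

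The signal of a long frame cannot be assigned to 1 copy of the element. Of the 7, each of the 6 bright ones was named by a single probe set, and this had the ending _f_, which on this array type marks a probe set for a sequence family. The annotation names these frames together in further probe sets that were not used here. YBL100W-B and YOR192C-B share 32 such probe sets, and both share 18 with YDR261W-B and 21 with YDR098C-B. YHR214C-B shared 5 with YDR098C-B and 1 with YBL005W-B. The values for the 6 frames are hence not independent readings of 6 transcripts.

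YGR109W-B had 23 probe sets, which is more than any other member had. On replicate 1 they ran from 0 to 247, with a median of 138, and on replicate 2 from 0.0617 to 238, with a median of 131. Of these, 22 read above the opposite-strand controls and 15 had a mean signal of 100 or more. The 20 family probe sets ran from 12.8 to 247 on replicate 1. Of the others, 2 had the ending _s_, for a sequence shared between transcripts, and 1 had the ending _i_. None had the plain ending, so the signal of this frame cannot be assigned to 1 copy either. The probe set at 0 on replicate 1, which is the one with the ending _i_, was left out of the gene's mean, as values of 0 were throughout.

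**Figure D3:**
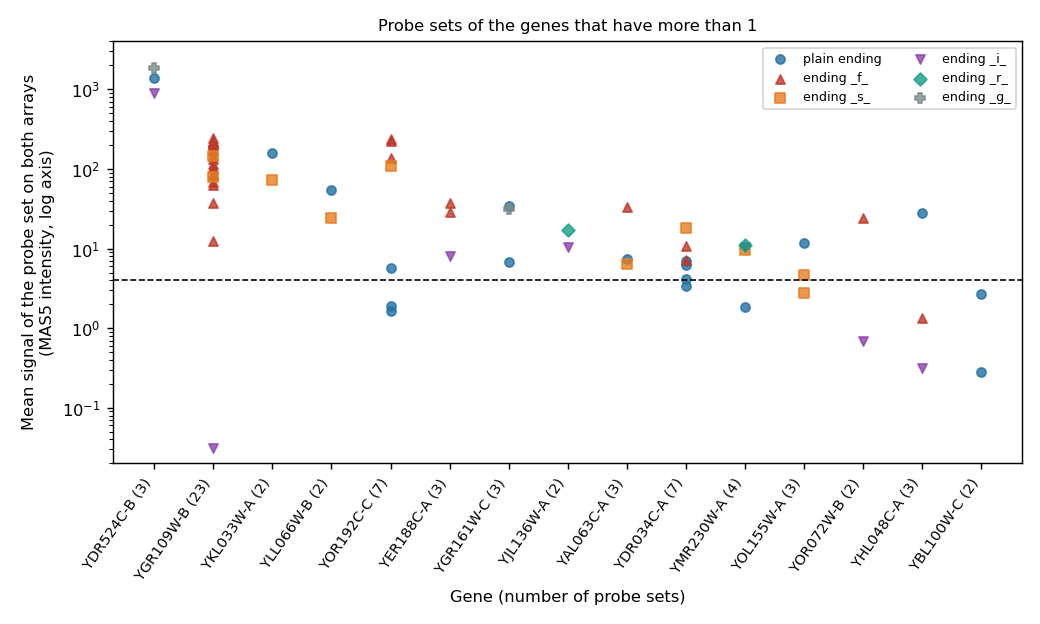
Mean signal over both arrays (log axis) of each probe set of the 15 members with more than 1, by probe set ending, with the opposite-strand control level of 4.07 as a dashed line. The 3 probe sets of YDR524C-B are all bright, the 23 of YGR109W-B spread over a wide range, and those of YOR192C-C and YHL048C-A lie on both sides of the line.

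Next to a pair of a long frame and its overlapping shorter frame, whether or not that long frame is a member, lay 5 short frames. YER138W-A among them was bright on a family probe set, and YBL100W-C read under the controls. YOR192C-C, which lies next to YOR192C-B, read 30.8 and 25.3 (28.04 ± 3.84) as the mean of 7 probe sets that disagreed. Its 3 family probe sets read 160 to 248 on replicate 1 and 113 to 232 on replicate 2. Its 3 probe sets with the plain ending read 1.85 to 6.33 and 1.36 to 5.18. The seventh, with the ending _s_ for a sequence shared between transcripts, read 100.4 and 117. The gene's mean therefore describes neither kind of probe set.

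YGR161W-C read 20.4 and 18.4 over 3 probe sets, of which 1 was at 7.61 and 5.86 and the others between 30.9 and 34.6. YHR214C-D read 18.9 and 18.3. YBL100W-C, in front of YBL100W-A and YBL100W-B, read 0.893 and 0.846, under the opposite-strand controls on both arrays. Frames in this position thus ranged from the top of the members to under the controls.

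The 11 other short frames within 10 protein-coding genes of a chromosome end had the weakest signal of the position classes, with a median of 2.17 ± 0.246. Of these 11, 4 (36.4%) read above the opposite-strand controls on both arrays, and 2 reached the 25th percentile of all genes. Over all 5656 genes 96.3% read above those controls. The share over all genes this near an end was not computed, so weak signal is not read as particular to these frames. More than 1 probe set was present for 4 of the 11.

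YLL066W-B was the brightest of the 11, at 35.3 and 37.7, from 2 probe sets at 54.8 and 54.7 and at 22.7 and 26.0. YER188C-A read 19.2 and 21.5 over 3 probe sets, the highest at 41.0 and 33.6. YMR316C-A, which overlaps DIA1 on the other strand, read 11.9 and 12.0, and YAL063C-A, beside the flocculin gene FLO9, read 12.3 and 10.8. The other 7 were under the controls on both arrays. They were YHL048C-A, YHR214C-E, YJR151W-A, YOL164W-A, YAL064W-B, YBR298C-A and YAL067W-A. The shortest member, YJR151W-A at 51 bases, read 2.88 and 2.10 and was the highest of these on replicate 1.

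In YHL048C-A, near COS8, the mean of 2.00 and 2.47 hid a probe set at 28.3 and 28.2. The other 2 probe sets of that gene read 0.192 and 0.432, and 1.47 and 1.23. The probe sets of YOR072W-B, a frame on chromosome XV that overlaps the tRNA gene SUF11, also parted, at 26.0 and 23.0 against 1.21 and 0.185. The bright probe set had the plain ending in YHL048C-A and the family ending in YOR072W-B, which had no plain one. In both genes the bright probe set differed little between replicates, and the probe sets stood much farther apart.

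Other genes with several probe sets were dim or mixed. YDR034C-A, on chromosome IV, had 7, from 3.96 to 19.2 on replicate 1 and from 2.84 to 17.6 on replicate 2. YMR230W-A, on chromosome XIII, had 4, from 2.49 to 11.4 and from 1.23 to 13.0. YOL155W-A, on chromosome XV, had 3, from 2.88 to 9.40 and from 2.72 to 13.8. In YMR230W-A and YOL155W-A 1 probe set read under the opposite-strand controls on both arrays, and in YDR034C-A 1 did so on replicate 2. The 3 probe sets of YAL063C-A ran from 5.43 to 37.6 and from 5.80 to 29.3, all above the controls.

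The remaining 58 short frames had a median of 13.2 ± 1.597. Of these, 46 (79.3%) read above the opposite-strand controls on both arrays and 22 (37.9%) reached the 25th percentile of all genes. Beside those already given, YPR170W-B read 75.04 and 94.2, YJR112W-A 62.9 and 67.6, and YLR361C-A 77.8 and 51.4. YBL029C-A, which lies in front of PET9, the gene of the main mitochondrial ADP/ATP carrier, read 56.8 and 62.8. YLR146W-A read 59.3 and 54.0, YOR034C-A 47.6 and 47.7, and YHR050W-A 46.3 and 43.0. These 7 were all brighter than the median of all genes, which 23 of the 81 members were.

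Around the median of all genes lay YCR087C-A at 41.5 and 43.6, YJL047C-A at 46.1 and 38.8 and YLR285C-A at 40.2 and 41.7. YJL047C-A overlaps the small nucleolar RNA gene SNR60 on the same strand, so its signal cannot be told apart from that of the RNA gene. YLR285C-A follows CTS1, the chitinase gene of daughter cell separation, on the same strand. Below them, YKL068W-A read 37.1 and 34.1 and YCL048W-A 33.8 and 32.9. The last 4 of the 22 lay near the filter. YGL194C-A read 24.3 and 22.2, YPL119C-A 21.0 and 25.6, YHR007C-A 21.5 and 24.6, and YGR240C-A 17.5 and 21.4. Just under it lay YHR214C-D and YDR524W-C, given above, and YGR121W-A at 17.7 and 15.9.

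**Figure D4:**
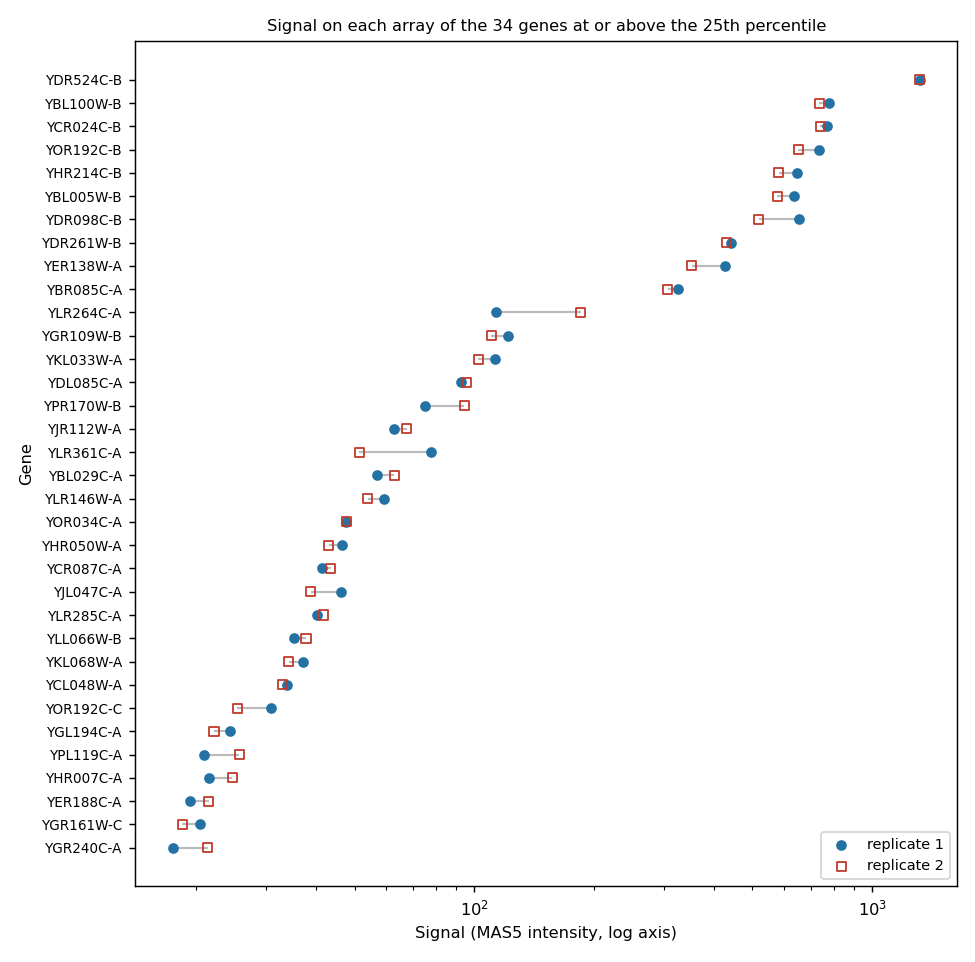
Signal on each array (log axis) of the 34 members at or above the 25th percentile of all genes, ordered by mean signal, with a circle for replicate 1 and a square for replicate 2. YLR264C-A and YLR361C-A have the longest lines between their replicates, and all 7 long frames have replicate 2 to the left.

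The dimmest members were at the limit of the scale. The deposited values were whole multiples of a step of 0.0639 on replicate 1 and 0.0617 on replicate 2. YCL001W-A, of 462 bases on chromosome III, read 1 step on each array. YAL067W-A read 8 steps and 1 step, YBR298C-A 4 and 5 steps, YOR008C-A 2 and 18 steps, and YGL188C-A 10 and 9 steps. These were the 5 members with the lowest mean signal, all under the opposite-strand controls on both arrays. They are not read as silent, since a probe set that binds poorly would give the same value.

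Signal among the 74 short frames was set against features the rule did not use. Frames longer than the median span had a median signal of 18.6 ± 0.417, and those up to it 6.99 ± 0.930. Log2 span and mean log2 signal of these frames correlated with Pearson's r of 0.15 and Spearman's rho of 0.26 (n = 74), values that are given as a description over probe sets of the same arrays. For the 35 frames on the C strand the median was 18.0 ± 0.441, and for the 39 on the W strand 7.84 ± 0.427. Of the C-strand frames 82.9% read above the opposite-strand controls, and of the W-strand frames 64.1%. The shares over all genes of each strand were not computed. Whether these splits go beyond chance was not tested.

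Signal was also set beside that of the neighbouring genes. For 32 frames the upstream gene lay on the same strand, and their median signal was 15.3. For 42 it lay on the other strand, and their median was 9.86. Among the 26 frames with a same-strand upstream gene that was measured, the Spearman correlation between both log2 signals was 0.15. It was 0.083 over 31 frames with an opposite-strand upstream gene, -0.026 over 36 with a same-strand downstream gene and 0.043 over 26 with an opposite-strand downstream gene. These values are a description over genes of the same arrays. Frames under the median of all genes also lay beside genes far above it. YHR007C-A lay between SOD2, the mitochondrial superoxide dismutase gene, at 376 and 333, and the sterol synthesis gene ERG11, at 670 and 697, all on the same strand. YJL136W-A, at 12.8 and 13.9, ended towards RPS21B, a ribosomal protein gene at 1724 and 1683.

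The second question was how closely the cultures matched in these genes. Among the 34 members at or above the 25th percentile, none differed by 2-fold in either direction. Of all 4242 such genes, 0.471% were at least 2-fold lower on replicate 2 and 0.0471% at least 2-fold higher, so a count of 0 among 34 is near the background. Less than 1.2-fold apart were 26 of the 34 (76.5%), where 89.6% of all such genes were. At 1.5-fold, 1 member was lower, with a background of 1.2%, and 1 was higher, with a background of 0.306%. With 1 array against 1 array, no p-value is given.

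YLR361C-A was the lower one, at 77.8 and 51.4, a log2 ratio of -0.60. YLR264C-A was the higher one, at 113 and 185, a log2 ratio of 0.71. Both frames lie on chromosome XII, and their probe sets belong to a run of numbers, 9334 to 9924, which was bounded by genes at least 2-fold lower on replicate 2 and holds 10 probe sets of such genes among 483. Of the 34 members, 4 have probe sets in that run. The other 2 of them, YLR146W-A and YLR285C-A, had log2 ratios of -0.13 and 0.053. The part of this run in the values of YLR361C-A and YLR264C-A was not tested, and the other 30 members outside it had log2 ratios from -0.33 to 0.33.

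After YLR264C-A, the highest log2 ratios were 0.33 for YPR170W-B, 0.29 for YGR240C-A, 0.29 for YPL119C-A and 0.19 for YHR007C-A. After YLR361C-A, the lowest were -0.33 for YDR098C-B, -0.28 for YOR192C-C, -0.27 for YER138W-A and -0.25 for YJL047C-A. Of these 4 low ones, 1 is a long frame and 2 lie beside one. YDR098C-B and YER138W-A were each read on 1 family probe set. The ratio of YOR192C-C averages probe sets that disagreed, with log2 ratios from -0.88 to 0.22. The median log2 ratio over the 34 members was -0.066, with 21 lower and 13 higher on replicate 2, and over all 4242 genes it was -0.023, with 57.6% lower. These counts depend on the scaling: 16 of the 34 were lower with quantile normalisation, 18 with centring on the median and 20 with scaling on the poly-A controls. The median of the 27 short frames among them was -0.0010.

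All 7 long frames were lower on replicate 2, with log2 ratios from -0.33 to -0.036 and a median of -0.14. The direction depends on the scaling of the arrays. With quantile normalisation 5 of the 7 were lower and YDR261W-B and YBL100W-B higher, with centring on the median YDR261W-B was higher, and with scaling on the poly-A controls all 7 remained lower. Since 6 of the frames were each read on a family probe set and are named together in further ones, the 7 ratios do not count as 7 measurements.

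**Figure D5:**
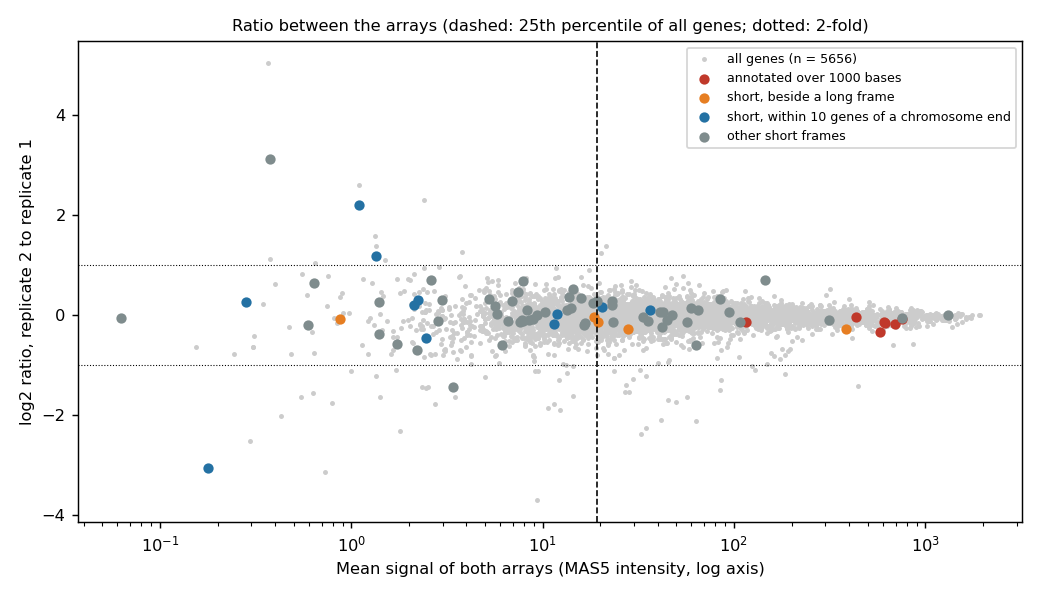
Log2 ratio of replicate 2 to replicate 1 against mean signal (log axis), with all 5656 genes in grey and the 81 members in colour. To the right of the dashed line no member passes the dotted 2-fold lines, and the 5 members that do lie to its left, at a signal under 4.

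Under the filter, where 47 members lie, ratios spread widely. Of these, 2 were at least 2-fold lower on replicate 2, where 2.05% of all genes under the filter were, and 3 at least 2-fold higher, where 0.919% were. The lower ones were YAL067W-A, at 0.511 and 0.0617, and YOR072W-B, at 5.62 and 2.06. In YOR072W-B the 2-fold difference lay in 1 of 2 probe sets, at 1.21 and 0.185. Its other probe set read 26.0 and 23.0, a log2 ratio of -0.18. The higher ones were YOL164W-A, at 0.895 and 2.04, YAL064W-B, at 0.511 and 2.35, and YOR008C-A, at 0.128 and 1.11. On at least 1 array each of these 5 lay under the opposite-strand controls, so their ratios say little about RNA. Over all 81 members with no filter, this makes 2 lower, where 0.866% of all genes were, and 3 higher, where 0.265% were.

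All genes were also split into 4 equal bands of signal, and the median absolute log2 ratio between the cultures was higher over the members than over all genes in each. The median absolute log2 ratio was 0.24 over 47 members and 0.19 over all genes in the lowest band, and 0.15 over 11 members and 0.11 over all genes in the next. It was 0.13 over 9 members and 0.096 over all genes in the third band, and 0.14 over 14 members and 0.075 over all genes in the highest. The SD of the ratio did not follow this in the second band, where it was 0.19 over the members and 0.24 over all genes. The bands do not match members and all genes closely in signal. In the lowest, 19 of the 47 members were under a signal of 3, where 142 of 1414 genes were. Over all genes the ratios spread most in that band. The 14 members of the highest band include the 7 long frames, whose ratios do not count as 7 measurements. Whether these differences go beyond chance was not tested. Across the 81 members the log2 signals of replicates 1 and 2 correlated with Pearson's r of 0.977 and Spearman's rho of 0.989, a description over genes, which are not independent replicates.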

How the data were processed

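Intensity was deposited by the authors as 1 linear value per probe set and array, and MAS5 is the tool that the submitters' processing notes name. For its version, settings and scaling target, nothing was given in the sources used here. Values were whole multiples of a step per array within 0.000107 steps, with 29 and 26 values of 0 on replicates 1 and 2.

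Gene names came from the platform annotation, joined by gene identifier to RefSeq's R64 table. All 6504 probe sets with 1 gene matched, 328 had several and stayed unnamed, and 2503 had none, controls included. A gene's value was the mean log2 signal of its probe sets, with values of 0 left out. Genes at or above the 25th percentile of mean log2 signal entered the counts at 2-fold. Protein length and sequence were not in the tables, so the annotated span stood in for them, and the identity, hydropathy and product comparisons planned were not made. YBR056W-A and YDR034W-B, planned to be named, had no probe set of their own here.

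Named genes were the 8 brightest and 5 dimmest members, the 5 highest and 5 lowest ratios, members with over 1 probe set, long frames and the 3 brightest genes of each comparison group, and others were chosen after their values were seen. Members, groups and lists were chosen with earlier results of these data known. The design text speaks of replicate cultures and does not say how they were started. The 2-fold count was run on simulated arrays whose ratios had less noise than the SD of 0.20 seen here. This checks the code and not the count in these data. Tables were computed with pandas 2.3.3, numpy 2.4.6 and scipy 1.17.1 under Python 3.11.15, and drawn with matplotlib 3.10.9.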

Additional observations from a re-analysis of the deposited data

How the results depend on the processing

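The members' median signal, 14.1, stayed within 1 SD of that value under the 3 scalings and with plain probe sets only (12.8 over 67 genes), and was 12.8 and 15.4 with either replicate left out. It was 17.5 with the brightest probe set of each gene and 11.7 without the long frames, an alternative added after seeing the data. The share above the control level, 75.3%, was 88.9% with the mouse controls as the level, 60.5% at 2 times the opposite-strand controls, and 75.3% to 76.5% with a replicate left out. The count at 2-fold, 0, was 2 at 1.5-fold (64 of 4242 genes in all) and 5 with no filter (64 of 5656). At 3-fold, with a pseudocount of 10 and under the scalings it was 0. Without the runs of probe set numbers it was also 0, with 2 of 3637 genes in all. That setting drops by construction the kept genes at least 2-fold lower on replicate 2, which define the runs. The run not described above, 6178 to 6594, held no probe set of a member. With a replicate left out, neither the count at 2-fold nor a ratio can be had. The median log2 ratio, -0.066, moved by less than the SD of 0.20 over all kept genes in each setting. That SD is a spread between single genes and is a wide measure for a median. The sign of the median turned with quantile normalisation (0.0042) and plain probe sets only (0.0033). The log2 ratios of the 10 members named for them moved by less than that SD under the scalings and the pseudocount. Even so, that of YOR192C-C went from -0.28 to -0.098 with the pseudocount. Of the named members' signals, that of YDR524C-B moved by more than its SD, to 1316 with quantile normalisation. No paired analysis was possible because both arrays belong to 1 group. Signal over background limits the 20 members under the opposite-strand controls on at least 1 array.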

Other observations

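Signal of suffixed names also appeared on probe sets that could not be assigned to a single gene. Of the 328 probe sets with several genes, 129 name at least 1 suffixed unnamed ORF, and 108 of these (83.7%) read above the opposite-strand controls on both arrays. Of all 328, 292 (89.0%) did, and of the probe sets with 1 gene 93.4% did. The median of the 129 was 97.0 on replicate 1 and 85.2 on replicate 2. They name 65 such ORFs, of which 11 are among the 81 described and 54 have no probe set of their own. The 34 that name YOR192C-B ran from 0.320 to 1261 on replicate 1, with a median of 582, and the 8 that name YGR109W-B from 4.79 to 103, with a median of 21.1.

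Family probe sets are frequent among the members. Among the 135 probe sets of the members, 38 (28.1%) have the family ending _f_, compared with 2.98% of all probe sets with 1 gene. Of these 38, 20 belong to YGR109W-B, and without that gene the share is 18 of 112 (16.1%). The plain ending belongs to 74 of them (54.8%), compared with 87.0%. Of the 135, 107 (79.3%) read above the opposite-strand controls on both arrays, compared with 93.4% of all probe sets with 1 gene.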
